A study of Mus musculus with 2 samples.

Results

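Mir191 and Mir425 are neighbouring miRNA genes on mouse chromosome 9, and their levels were measured in the liver of mouse embryos at day 12.5. They were taken as 2 members out of a table of 1973 annotated miRNA genes, by their names, although earlier results of these data were known when they were proposed. Mir425 has a row of its own and was read from its sense counts. Mir191 has no row in the table, so it was read from the opposite-strand counts of Gm24083, a miRNA gene annotated across from it on the minus strand. Per the labels, both libraries came from healthy B6NCrl embryos with males and females pooled, and no genotype, treatment or second age was given. For replicate 2 the livers of 88 embryos were pooled, and for replicate 1 the pool was of 120 embryos. The labels call the pools biological replicates but name the same donor for both. Whether the pools are of fully separate animals is not stated, so the spread between them may in part be technical. With 1 group and 2 replicates, the data give levels, the balance between the genes and the difference between libraries, and no comparison of conditions.

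Day 12.5 liver is a site of blood formation, in which erythroblasts are mixed with hepatoblasts, endothelial cells and stroma. A miRNA gene is transcribed as part of a longer primary transcript, which the nuclease Drosha cuts to a hairpin and Dicer cuts to a mature miRNA that guides Argonaute to messenger RNAs through its seed, bases 2 to 8. Mir191 and Mir425 are regarded as products of a shared primary transcript. Mir191 is known in mouse fetal erythroblasts, where its decline is needed for enucleation and where it represses Riok3 and Mxi1. It is also widely used as a normaliser in miRNA assays. In a whole organ, fewer cells of a type and less RNA per cell cannot be told apart.

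The mature miRNAs are shown first because the counts of each gene sum over both arms of its hairpin. Sequences are from RefSeq on GRCm38.p6, and capitals mark the seed.
miR-191-5p: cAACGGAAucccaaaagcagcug
miR-191-3p: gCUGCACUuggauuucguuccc
miR-425-5p: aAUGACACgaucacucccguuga
miR-425-3p: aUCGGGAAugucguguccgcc
The 4 mature forms are 21 to 23 bases long and have 4 different seeds, AACGGAA and CUGCACU for miR-191 and AUGACAC and UCGGGAA for miR-425. Among RefSeq mouse miRNAs, 0 others carry either miR-191 seed or the miR-425-3p seed. The seed of miR-425-5p is shared with 1 other, miR-489-3p. Its gene, Mir489, had 2 counts in replicate 2 and 2 in replicate 1, no more than the 3 counts taken as the limit of detection.

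The hairpins below show how the Mir191 hairpin lies within Gm24083. Capitals mark the mature arms in the Mir191 and Mir425 hairpins, and, in the Gm24083 transcript from GENCODE M21, the stretch that is the reverse complement of the whole Mir191 hairpin.
Mir191: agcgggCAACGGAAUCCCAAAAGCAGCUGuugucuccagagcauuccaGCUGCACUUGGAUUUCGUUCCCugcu
Mir425: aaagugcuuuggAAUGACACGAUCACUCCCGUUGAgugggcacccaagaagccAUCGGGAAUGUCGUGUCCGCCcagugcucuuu
Gm24083: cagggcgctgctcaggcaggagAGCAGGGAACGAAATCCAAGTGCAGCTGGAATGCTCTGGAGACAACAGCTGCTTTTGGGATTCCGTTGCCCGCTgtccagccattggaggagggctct
The Mir191 hairpin is 74 bases long and the Mir425 hairpin 85, and the longest run of bases they share is 5. Neither holds a run of 20 bases found in another RefSeq mouse hairpin. The longest run shared with any other was 10 bases for Mir191 and 12 for Mir425. Reads that align to several places are left out of the counts, and here no other annotated hairpin competes for them. The GC content was 54.1% in both hairpins. Their predicted minimum free energies were -35.0 kcal per mol for Mir191 and -31.7 kcal per mol for Mir425. Of 1005 mouse hairpins, 40.0% had a lower energy than Mir191 and 51.3% a lower energy than Mir425, so both are ordinary hairpins in this respect.

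In mm10 coordinates, Mir191 (ENSMUSG00000105497.1) spans chr9:108568319-108568392 on the plus strand, and Gm24083 (ENSMUSG00000092915.1) spans chr9:108568295-108568414 on the minus strand. Mir425 (ENSMUSG00000065579.1) spans chr9:108568777-108568861 on the plus strand, with 384 bases between it and Mir191. Both are usually placed in Dalrd3, a gene for a factor in tRNA methylation, and the annotations differ on this. In RefSeq, Dalrd3 runs from 108567484 to 108572773 and encloses both hairpins. In GENCODE M21, Dalrd3 runs from 108569886 to 108572774 and starts 1024 bases after the end of Mir425. There the hairpins lie instead in the long noncoding RNA 4833445I07Rik (ENSMUSG00000103103.1), from 108567533 to 108569174 on the same strand. Both are exonic in its single-exon transcript. In its spliced transcript Mir191 lies in the intron and Mir425 lies past the end. The name Dalrd3 for the host therefore holds for the RefSeq gene and not for the GENCODE one.

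**Figure D1:**
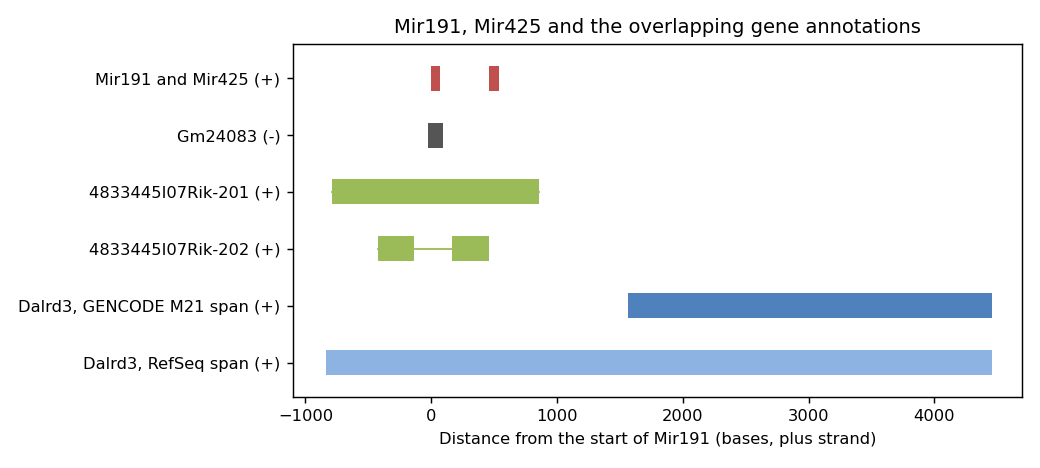
Map of the locus, with the distance from the start of Mir191 in bases on the x axis and each gene or transcript on a row, boxes being exons or, for Dalrd3, the gene span. Mir191 and Mir425 fall within the RefSeq span of Dalrd3 and before the start of its GENCODE M21 span, which lies 1024 bases past the end of Mir425.

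All reads counted at the locus came from a single strand. The row of Gm24083 held 21009 opposite-strand counts in replicate 2 and 23602 in replicate 1, and 0 sense counts in both. The row of Mir425 held 19170 sense counts in replicate 2 and 16553 in replicate 1, and 0 opposite-strand counts in both. They thus lay on the plus strand, that of Mir191 and Mir425. With 3 counts as the most that an observed 0 allows, a miRNA from the minus strand could stand at up to 0.849 counts per 1000000 in replicate 2 and 0.870 in replicate 1. These limits, and every interval below, cover counting error only, since the reads carry no molecular identifiers.

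Mir191 was 1 of 32 miRNA genes of GENCODE M21 that have no row and lie opposite a listed gene. Ordered by opposite-strand counts it was number 5, after Mir142 of blood cells, Mir409, Mir378a and Mir376a. It held 5.78% of all opposite-strand counts in replicate 2 and 6.30% in replicate 1. Mir142 held 39.8% in replicate 2 and 40.3% in replicate 1. For each of these 5 genes the listed partner had 0 sense counts in both libraries. Of the 32 genes, 13 had at least 100 counts over both libraries and 8 had 0.

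Mir191 and Mir425 were both among the more abundant miRNAs of day 12.5 liver, as counted from reads that align to a single place. A level in CPM is the count of a gene divided by all sense counts of miRNA genes in the library, times 1000000, and these sums were 3534816 in replicate 2 and 3447858 in replicate 1. The counted molecules were taken to be whole miRNAs of nearly the same length, so no scaling by length was made. The lengths of the reads were not examined. How well each miRNA was captured in the library was not measured, so a ratio of counts need not be a ratio of molecules. Mir191 had 5943 CPM in replicate 2 and 6845 CPM in replicate 1, a mean of 6394 ± 638 CPM (SD, n = 2). Mir425 had 5423 CPM in replicate 2 and 4801 CPM in replicate 1, a mean of 5112 ± 440 CPM (SD, n = 2). Mir191 was the higher in both libraries and the ranges did not overlap.

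The gap between the genes was uneven. Mir191 exceeded Mir425 by 520 CPM in replicate 2 and by 2044 CPM in replicate 1, with a difference of means of 1282 CPM. The difference had the same sign in 2 of 2 libraries, too few for a test over samples. Among 2005 ranked genes, opposite-strand ones included, Mir191 ranked 45 by mean level and Mir425 ranked 52. Many of the ranked genes had no counts, and by sense counts 754 genes had at least 1 count. Mir191 ranked 45 in each library, while Mir425 ranked 50 in replicate 2 and 52 in replicate 1. Reads that align to several places were left out, so miRNAs with near-identical copies can rank too low. Neither Mir191 nor Mir425 has such a copy, so the ranks of both can be too high.

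**Figure D2:**
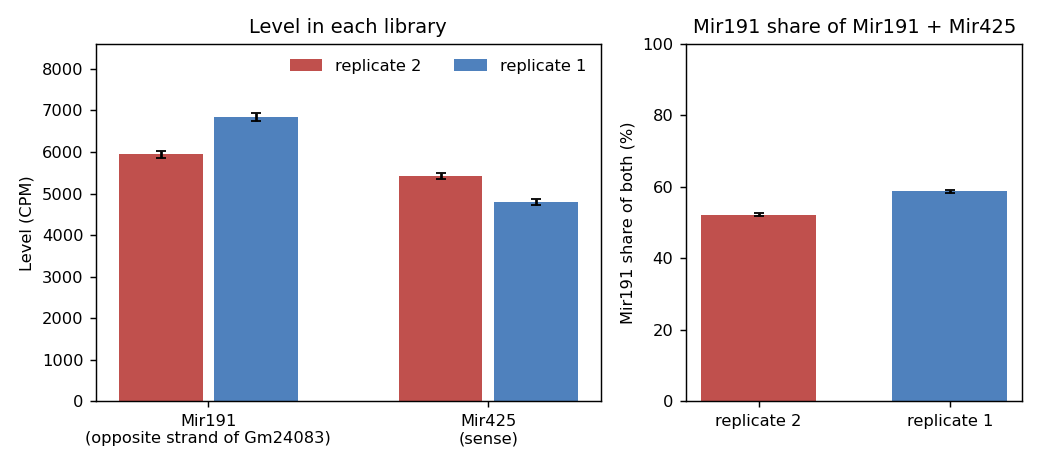
Level of Mir191 and Mir425 in CPM in each library (left) and the share of Mir191 in the counts of both genes in percent (right), with 95% exact counting intervals as error bars. Mir191 is the higher in both libraries, but its share is 52.3% in replicate 2 and 58.8% in replicate 1.

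Genes with levels nearest to those of the pair came from many loci. The 3 genes just above Mir191 were Mir376a at 7593 ± 411 CPM (SD, n = 2), Mir130b at 6962 ± 497 CPM and Mir151 at 6690 ± 376 CPM. The 3 just below were Mir223, a myeloid miRNA, at 6256 ± 951 CPM, Mir30d at 5993 ± 124 CPM and Mir337 at 5294 ± 88.2 CPM. The means of Mir130b, Mir151, Mir223 and Mir30d lay within 1 SD of that of Mir191. Mir151 was above Mir191 and Mir30d below it in both libraries, while Mir130b and Mir223 changed places with it between libraries. Mir376a and Mir337, both of the imprinted Dlk1-Dio3 region, lay farther away than that SD.

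The 3 genes just above Mir425 were Mir100 at 5281 ± 840 CPM (SD, n = 2), Mir16-1, of the miR-15 and miR-16 family that restrains the cell cycle, at 5252 ± 561 CPM, and Mir381 at 5243 ± 21.9 CPM. All 3 lay within 1 SD of Mir425. Mir16-1 or its neighbour Mir15a shares a run of 20 bases with another hairpin, so the level of Mir16-1 is uncertain and can be too low. The 3 just below were Mir296 at 4647 ± 604 CPM, Mir351 at 4615 ± 169 CPM and Mir214 at 4543 ± 398 CPM. Those were between 465 and 569 CPM from Mir425, just beyond its SD. These are the genes most like the pair in level alone, over 2 libraries, and 2 libraries give no pattern across conditions to compare.

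**Figure D3:**
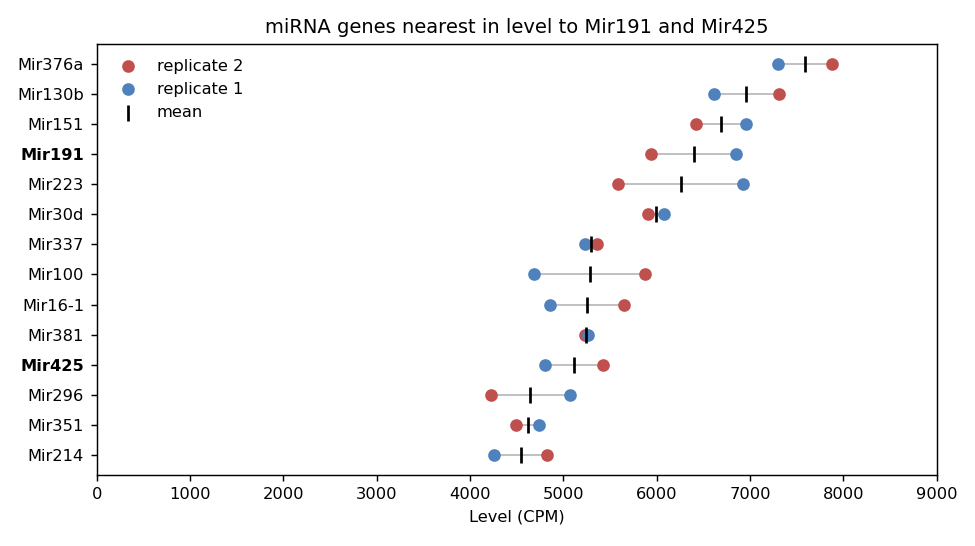
Level in CPM (x axis) of Mir191, Mir425 and the genes nearest to each by mean level (rows), with a point for each library and a bar at the mean. The span of Mir191 overlaps those of Mir130b, Mir151, Mir223 and Mir30d, and the span of Mir425 overlaps those of Mir337, Mir100, Mir16-1, Mir381, Mir296 and Mir214.

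Set beside miRNAs typical of single cell types, the pair was intermediate. Mir126a, an endothelial miRNA, stood at 68490 ± 461 CPM (SD, n = 2), or 10.7 times the mean of Mir191. Mir122 of hepatocytes stood at 54020 ± 9747 CPM, or 8.45 times, so the liver label holds. The leukocyte genes spread widely, with Mir142 at 42354 ± 1984 CPM by opposite-strand counts, Mir223 just below Mir191 at 6256 ± 951 CPM, and Mir155 at 234 ± 6.76 CPM. Among the erythroid genes, Mir451a was above the pair at 22459 ± 14195 CPM, while Mir144 at 3671 ± 525 CPM and Mir486 at 1048 ± 221 CPM were below it. The level of Mir486 is uncertain, because Mir3107 is annotated across from it and runs of bases shared with other hairpins could not be checked for it. Shared runs could not be checked for Mir122 either.

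Of 12 miRNA genes known from red cell formation, 2 were above Mir191 by mean level and 9 were below Mir425. The 2 above were Mir451a and Mir30a, which stood at 11903 ± 36.9 CPM (SD, n = 2). Mir223 lay between the pair. The lower ones included Mir221 at 335 ± 2.60 CPM and Mir222 at 234 ± 21.9 CPM, a cluster that represses the growth factor receptor Kit, and Mir155 at 234 ± 6.76 CPM. Mir24-1, read from opposite-strand counts, and Mir24-2 share a run of 20 bases, so their levels of 36.2 ± 1.59 and 263 ± 10.7 CPM are uncertain and can be too low.

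Between the libraries, Mir191 and Mir425 moved in opposite directions while their sum stayed nearly level. The following log2 ratios are replicate 2 over replicate 1, on library sizes scaled by the TMM method and with 0.5 counts added. For Mir191 the value was -0.14 (95% exact interval -0.17 to -0.11), that is, lower in replicate 2. For Mir425 it was 0.24 (0.21 to 0.27), that is, higher there. Each interval lay on its own side of 0, and the direction of each gene was the same with TMM sizes, total sense counts and DESeq2 size factors. The summed counts of both genes were 40179 in replicate 2 and 40155 in replicate 1. That sum made 11367 CPM in replicate 2 and 11646 CPM in replicate 1, and its log2 ratio on TMM sizes was 0.03 (0.01 to 0.05). The direction of the sum turned with the scaling, with a log2 ratio of -0.04 on total sense counts and 0.0009 with DESeq2 size factors.

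Against the other miRNA genes these differences were not large. Of 289 genes with at least 100 sense counts, 20 (6.92%) differed by 1.5-fold or more between the libraries, and 0 of the 2 members did. Of those 20, 11 were higher and 9 lower in replicate 2. With total counts as library sizes 24 genes differed by as much, of which 8 were higher and 16 lower. At 1.2-fold or more, 100 of the 289 (34.6%) differed, and neither Mir191 nor Mir425 reached it. Mir191 was exceeded in absolute log2 ratio by 180 of the 289 genes (62.3%) and Mir425 by 110 (38.1%), the median being 0.19. Over both libraries Mir191 had 44611 counts and Mir425 35723, and genes near 100 counts carry more counting error. The shares were not restricted to genes of similar level, so they can make the pair look steadier than its peers in level. Each side of these ratios is 1 library, so they compare libraries and not conditions.

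Among the marker genes of 4 cell types, the erythroid Mir451a alone passed 1.5-fold between the libraries, where 20 of all 289 genes (6.92%) did. The erythroid genes Mir144, Mir451a and Mir486 summed to 37430 CPM in replicate 2 and 16926 CPM in replicate 1, and none was at 0. Mir451a had a log2 ratio of 1.45 (1.43 to 1.47). Mir144 had a log2 ratio of 0.36 and Mir486 of -0.37. The hepatocyte Mir122 stood at 47128 CPM in replicate 2 and 60913 CPM in replicate 1, with a log2 ratio of -0.31. The endothelial Mir126a had a log2 ratio of 0.05, and the leukocyte Mir142, Mir223 and Mir155 had -0.03, -0.25 and 0.004. Of the 12 genes known from red cell formation, Mir451a alone passed 1.5-fold, which is near the 6.92% of all genes and does not set the list apart. The median log2 ratio was 0.03 over the 12 against 0.05 over the 289 genes. The ratio of Mir191 to Mir451a was 0.183 in replicate 2 and 0.551 in replicate 1. That of Mir191 to Mir144 was 1.47 in replicate 2 and 2.07 in replicate 1. For Mir486 the ratio went the other way, with 6.66 in replicate 2 and 5.69 in replicate 1. The ratio of Mir191 to Mir126a was 0.0872 in replicate 2 and 0.0995 in replicate 1. The part of cell composition in the members' values was not tested.

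**Figure D4:**
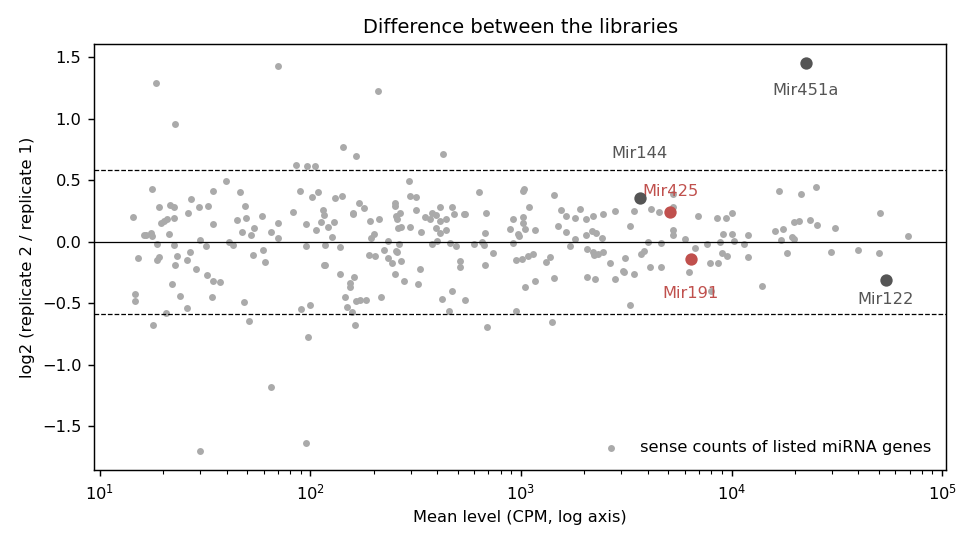
Difference between the libraries as log2 of replicate 2 over replicate 1 (y axis) against mean level in CPM (x axis, log scale) for miRNA genes with at least 100 counts, with dashed lines at 1.5-fold. Mir191 at -0.14 and Mir425 at 0.24 lie on either side of 0 and inside the dashed lines, while Mir451a lies at 1.45.

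The balance within the pair needs no library size and shifted between the libraries. Mir191 over Mir425 was 1.10 (95% exact Clopper-Pearson interval 1.07 to 1.12) in replicate 2 and 1.43 (1.40 to 1.45) in replicate 1, a mean of 1.26 ± 0.233 (SD, n = 2). Mir191 thus made up 52.3% (51.8 to 52.8) of the counts of both genes in replicate 2 and 58.8% (58.3 to 59.3) in replicate 1. Neither interval included a ratio of 1, and the intervals of the libraries did not overlap. The log2 of the ratio in replicate 2 over that in replicate 1 was -0.38 (-0.42 to -0.34). A two-sided Fisher's exact test of the counts by gene and library gave p = 1.74e-76, which measures counting error between these 2 libraries only.

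Other neighbouring miRNA genes give the scale for both values. There were 68 pairs of adjacent genes within 1 kb on the same strand with at least 100 counts for each member, and the higher member was set over the lower. Of the other 67 pairs, 63 (94.0%) had a larger ratio than Mir191 to Mir425, with a median of 5.99, and 22 had a ratio of 10 or more. By the mean ratio 4 pairs were more even than Mir191 and Mir425. This number depended on the library, with 1 pair more even in replicate 2, namely Mir540 and Mir665, and 9 pairs more even in replicate 1. Pairs nearest in ratio were Mir181c and Mir181d at 1.28 ± 0.0854 (SD, n = 2), Mir296 and Mir298 at 1.25 ± 0.0626, Mir92-2 and Mir363 at 1.32 ± 0.0695, Mir27a and Mir24-2 at 1.34 ± 0.143, and Mir302a and Mir302d at 1.17 ± 0.0634. In 23 of the other pairs a member shares a run of 20 bases with another hairpin and can be undercounted. A further 6 pairs could not be checked for shared runs. Of the 5 pairs nearest in ratio, Mir92-2 with Mir363, Mir27a with Mir24-2 and Mir302a with Mir302d are among the 23. Mir181c with Mir181d is among the 6, so the ratios of these pairs are uncertain.

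In the shift of its ratio the pair was farther from the middle. The absolute log2 change between libraries was 0.38 for Mir191 and Mir425, against a median of 0.17 over the other 67 pairs, and 12 of them (17.9%) changed more. Pairs with a member of few counts carry more counting error, so this share can make the shift of Mir191 and Mir425 look more ordinary than it is. All 5 pairs nearest in ratio changed less, the most being Mir27a and Mir24-2 with 0.22. A change of 1.2-fold or more was found in 21 of the 68 pairs (30.9%), Mir191 and Mir425 among them. Members with log2 ratios of opposite sign, as here, occurred in 26 of the other 67 pairs. Mir293 over Mir294 changed most towards replicate 2, with 3.28 in replicate 2 and 1.40 in replicate 1. Mir294 had only 136 counts in replicate 2 and 315 in replicate 1. Mir451a over Mir144 followed with 8.04 in replicate 2 and 3.76 in replicate 1.

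**Figure D5:**
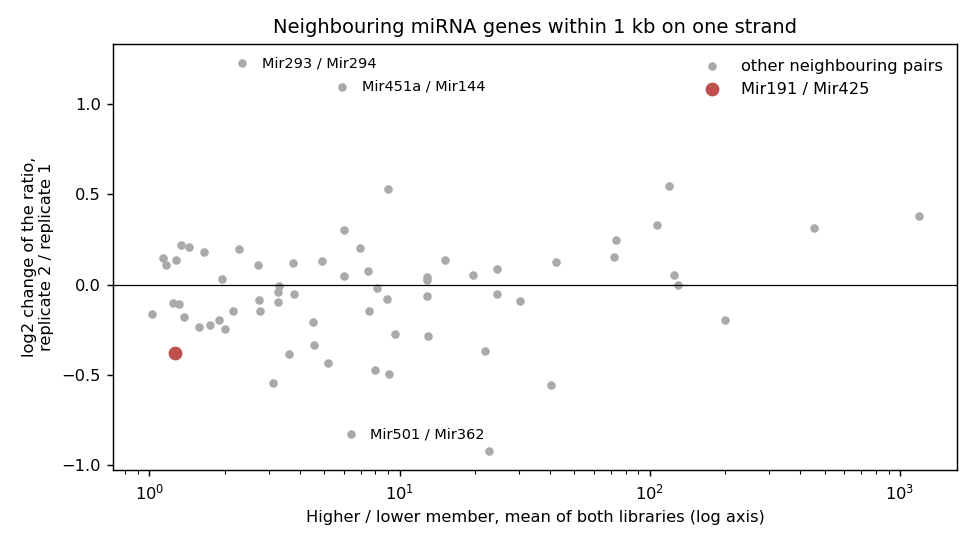
Pairs of neighbouring miRNA genes within 1 kb on the same strand, with the ratio of the higher to the lower member on the x axis (log scale, mean of both libraries) and the log2 change of that ratio, replicate 2 over replicate 1, on the y axis. Mir191 over Mir425 lies at a ratio of 1.26 and a change of -0.38, towards the even end of the x axis.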

How the data were processed

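The authors deposited raw read counts per miRNA gene for each library, made from mm10 alignments with the GENCODE M4 annotation per the lists deposited with the files. They used an aligner and a counter not given in the sources used here. A table holds counts of both strands, of the sense strand and of the opposite strand, and 4 lines of reads with no gene. These lines were left out, and in replicate 2 and replicate 1 they held 25.8% and 29.4% of reads as unmapped and 31.1% and 28.8% as aligned to several places. The depth was 11013976 and 11057424 reads in replicates 2 and 1.

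Names and coordinates came from GENCODE M21, where 1894 of 1973 identifiers matched, and sequences from RefSeq on GRCm38.p6. Counts were scaled to CPM. Ratios between libraries used TMM sizes (edgeR 4.0.16), with DESeq2 1.42.0 size factors as an alternative. Exact intervals used SciPy 1.17.1, and hairpin energies RNAfold 2.7.2. The interval of the change in the ratio is a normal one. The ratio script was tested on simulated data. Members, lists and rules were chosen with earlier results of these data known. Named were the members, the 3 nearest genes by level on each side, the marker and red cell lists, seed sharers, the 5 nearest pairs and the 5 leading opposite-strand genes. The pairs with the most changed ratio, Mir293 with Mir294 and Mir451a with Mir144, and the more even Mir540 with Mir665 were chosen after their values were seen.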

Additional observations from a re-analysis of the deposited data

How the results depend on the processing

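The levels depended on the denominator. Per 1000000 sense and opposite-strand counts, Mir425 stood at 4624 CPM and Mir191 at 5782 CPM. Per 1000000 reads of the library they stood at 1619 and 2021. With total sense counts as library sizes, the log2 ratio of replicate 2 over replicate 1 was 0.18 for Mir425 and -0.20 for Mir191. With DESeq2 size factors it was 0.21 and -0.17. Counts of both strands gave the same values for both genes. Without replicate 1 or 2, the ratio of Mir191 to Mir425 was 1.10 or 1.43, and from summed counts it was 1.25. The number of genes past 1.5-fold was 98 of 464 at a minimum of 10 counts, 321 of 754 at a minimum of 1 count, and 24 with total counts or with DESeq2 size factors. It was 100 at 1.2-fold. Pairs with a larger ratio than Mir191 to Mir425 numbered 91 of 98 within 10 kb and 79 of 84 at 10 counts. In alternatives chosen after seeing the data, they numbered 35 of 38 without shared runs of 20 bases and 55 of 58 by sense counts only. The 38 leave out the 6 pairs that could not be checked for shared runs. No paired analysis was possible because no other group shares replicate numbers with this one, and Mir191 and Mir425 were set against each other within each library. With 2 libraries, depth does not limit these abundant genes as much as the number of replicates does.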
